A study of Arabidopsis thaliana with 12 samples.

Results

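The transcripts described here encode 2 seed storage proteins of the cupin family, PAP85 and AT2G28490, and 3 oleosins, OLEO3, AT3G01570 and AT2G25890, in young Arabidopsis thaliana seedlings. Members were the genes of these names in the array annotation, and each was read by 1 probe set, so that 5 of 13350 named genes with a probe set of their own were followed. The annotation gives names and not protein families, so the family of each gene is background knowledge. All 5 passed the filter on low signal.

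Storage cupins, the vicilin-like and legumin-like globulins, are packed into protein storage vacuoles while a seed matures, and are broken down to amino acids once it germinates. Oleosins coat the oil bodies of the same embryo cells with a long hydrophobic hairpin set into the oil, and keep the oil bodies small and apart until the oil is used. Both families are hallmarks of the maturing and dry seed, and their transcripts normally disappear as a seedling establishes.

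Total RNA from the aerial parts of seedlings aged 4 days had been hybridised to oligonucleotide arrays, 12 in all, with 3 biological replicates in each of 4 groups. The groups were atbzip16 seedlings kept in long days of red light (fluence rate 0.5 µmol m-2 s-1), Ler seedlings kept in that light, atbzip16 seedlings in the dark, and Ler seedlings in the dark. Ler is the wild type Landsberg erecta and atbzip16 a mutant in that background, called after the bZIP16 transcription factor, while the labels name neither the kind of mutation nor the number of lines. Values are MAS5 signals in arbitrary units, in which every array had been scaled to 1 trimmed mean, so only the change of a gene between arrays is read here and not its level against another gene.

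Some facts of the whole series touch every value. For 6 samples, those of dark atbzip16 and red-light Ler, the description contradicts the title on light, and titles were followed. In each genotype the title groups separated all 5 genes, whose red-light signals were all below their dark signals. The level of bZIP16 itself was not analysed here. The labelled tissue excludes roots, and the 2 of 14 listed root genes with a probe set, EXPA7 and EXPA18, had signals of at most 160.7 on any array, and EXPA18, the 1 tested, was not called (log2 fold change of red light over dark 0.81 in atbzip16 and 1.52 in Ler). In bulk tissue, fewer cells holding a transcript and less of it per cell cannot be told apart.

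**Figure D1:**
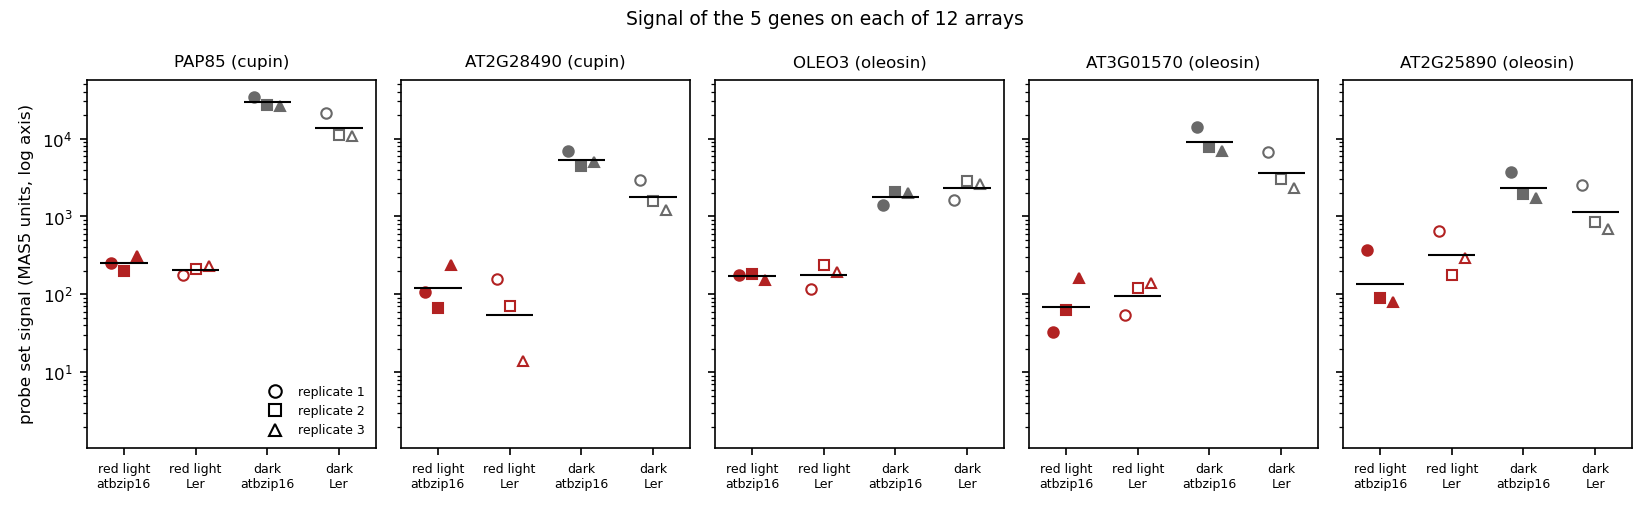
Each panel shows the MAS5 signal of 1 gene on a log axis, with a symbol per array (circle, square and triangle for replicates 1, 2 and 3; filled for atbzip16 and open for Ler; red for red light and grey for dark) and a bar at the geometric mean of each group of 3. Dark signals lie above red-light signals in every panel, and the dark geometric mean of atbzip16 lies above that of Ler for all genes but OLEO3, with overlapping arrays for AT2G25890.

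The first comparison asks how the cupins and oleosins differed between red light and dark in each genotype. All 5 genes were lower in red light than in the dark in both genotypes, by 3.54-fold for AT2G25890 in Ler to 131-fold for AT3G01570 in atbzip16. By limma, with Benjamini-Hochberg adjustment over all 15922 tested probe sets, 5 of the 5 fell in atbzip16, where 7.03% of tested probe sets fell, and 4 of the 5 in Ler, where 5.88% did. The median log2 fold change of the 5 was -5.49 in atbzip16 and -5.04 in Ler, beside medians over all tested probe sets of -0.02 in atbzip16 and -0.06 in Ler. No red-light array reached the lowest dark array of its genotype for any of the 5, which was so of 17% of tested probe sets in atbzip16 and 15.7% in Ler. The 5 genes were chosen with earlier results of these data known. The shares over all probe sets, here and below, are therefore a background and no test of the set.

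PAP85 encodes a vicilin-like storage protein. Its signal was 254.7, 197.1 and 312.3 in red-light atbzip16 (replicates 1, 2 and 3), against 34501.1, 27131.9 and 26608.3 in dark atbzip16. In Ler it was 177.4, 209.5 and 234.5 in red light, against 21600.9, 10988.5 and 10913.4 in the dark. The red-light arrays thus kept 0.857% of the dark geometric mean in atbzip16 and 1.498% in Ler, with the groups far apart. On the log2 scale red light differed from dark by -6.87 ± 0.25 in atbzip16 and by -6.06 ± 0.25 in Ler (SE from limma, 3 arrays in each group, with adjusted p = 1.92e-08 and 5.15e-08). Of all tested probe sets it had the fall of rank 20 in atbzip16 and of rank 16 in Ler.

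AT2G28490, the other cupin, had signals of 106.6, 67.5 and 237.4 in red-light atbzip16, against 7023.8, 4465.5 and 4952.7 in dark atbzip16. In Ler they were 155.7, 70.8 and 14.1 in red light, against 2903.8, 1601.4 and 1201.3 in the dark. The dark replicates differed by at most 2.42-fold within a genotype, while the red-light Ler replicates spanned 11.04-fold at their low level. The log2 fold change was -5.49 ± 0.70 in atbzip16 and -5.04 ± 0.70 in Ler (limma adjusted p = 0.000225 and 0.000508), with an SE well above that of PAP85. The files used here give no detection calls, so whether the lowest red-light signals, such as 14.1 here, were above background is not known, and the size of falls to such signals is loosely determined.

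AT3G01570 showed the largest change among the oleosins. Its signals were 32.8, 62.4 and 164.6 in red-light atbzip16, against 14099.3, 7720.6 and 6975.2 in dark atbzip16. In Ler they were 53.6, 119.1 and 139.5 in red light, against 6646.6, 3053.8 and 2350.2 in the dark. In both genotypes replicate 1 was the highest dark array and the lowest red-light array. On the log2 scale red light over dark was -7.03 ± 0.56 in atbzip16 and -5.24 ± 0.56 in Ler (limma adjusted p = 4.76e-06 and 6.61e-05).

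OLEO3 fell by less and varied little. Its signals were 176.1, 181.4 and 155.1 in red-light atbzip16, against 1390.0, 2046.4 and 1981.4 in dark atbzip16. In Ler they were 115.6, 239.1 and 195.1 in red light, against 1628.8, 2817.1 and 2614.6 in the dark. Replicate 1 was the lowest dark array of both genotypes, unlike in the other 4 genes. Its log2 fold change was -3.38 ± 0.27 in atbzip16 and -3.71 ± 0.27 in Ler (limma adjusted p = 5.35e-06 and 2.71e-06), which makes OLEO3 the only 1 of the 5 with the smaller fall in atbzip16.

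AT2G25890 had the smallest fall of the 5 in Ler. Its signals were 368.5, 89.2 and 78.8 in red-light atbzip16, against 3765.4, 1931.5 and 1704.6 in dark atbzip16. In Ler they were 648.5, 178.5 and 292.5 in red light, against 2518.2, 861.7 and 694.3 in the dark. Replicate 1 was the highest array in all 4 groups, and red light kept 5.93% of the dark signal in atbzip16 and 28.2% in Ler. The log2 fold change was -4.07 ± 0.64 in atbzip16 (limma adjusted p = 0.00108) and -1.83 ± 0.64 in Ler, where it did not pass (adjusted p = 0.0903).

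Same-numbered arrays of different groups deviated together across the tested probe sets, most clearly for replicate 1. The fit with replicate number as a block was therefore also read. With that block AT2G25890 passed in Ler as well (adjusted p = 2.51e-05), and all 5 genes fell in both genotypes, where 13.5% of tested probe sets fell in atbzip16 and 12.7% in Ler. Without replicate 1 in all groups limma called it in Ler too (-1.76, adjusted p = 1.94e-05), where 14.3% of tested probe sets fell. The call of AT2G25890 in atbzip16 ended when replicate 2 was left out of all groups (log2 fold change -3.89, limma adjusted p = 0.0536).

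**Figure D2:**
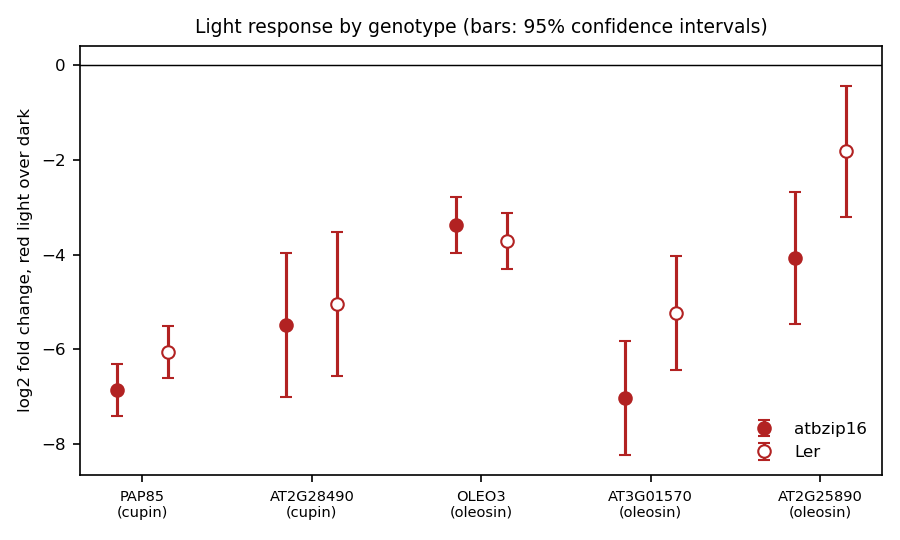
Points give the log2 fold change of red light over dark for each gene, filled for atbzip16 and open for Ler, with 95% confidence intervals from limma (3 arrays per group). All intervals lie below 0, and OLEO3 has the only point that is higher in atbzip16 than in Ler.

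The second comparison asks what set atbzip16 apart from Ler in darkness, where the signals of these genes were high. The 4 genes PAP85, AT2G28490, AT3G01570 and AT2G25890 had 2.02 to 3.03 times the Ler signal in atbzip16, and OLEO3 had 0.777 times. By limma none of the 5 passed over all probe sets, while 3 had an unadjusted p under 0.05, as did 1013 of the 15922 tested. In this contrast 0.1% of tested probe sets were called, and 0.0628% called higher. With replicate as a block 2 of the 5 rose, PAP85 and AT2G25890, where 1.27% of tested probe sets did.

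PAP85 was 1.60, 2.47 and 2.44 times as high in dark atbzip16 as in dark Ler in same-number pairs 1, 2 and 3. The log2 difference was 1.09 ± 0.25 (95% confidence interval 0.54 to 1.64, limma adjusted p = 0.199, with the block 0.0149). The lowest atbzip16 array, at 26608.3, stood above the highest Ler array, at 21600.9.

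AT2G28490 was 2.42, 2.79 and 4.12 times as high in atbzip16 in the 3 pairs, or 1.60 ± 0.70 on the log2 scale (limma adjusted p = 0.753, 0.214 with the block). AT3G01570 was 2.12, 2.53 and 2.97 times as high, or 1.33 ± 0.56 on the log2 scale (limma adjusted p = 0.744, 0.266 with the block). The groups of both genes did not overlap, as was so for PAP85, so 3 of the 5 genes separated upward, where 5.96% of tested probe sets did.

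AT2G25890 was 1.495, 2.24 and 2.46 times as high in atbzip16 within pairs, or 1.01 ± 0.64 on the log2 scale (limma adjusted p = 0.904, with the block 0.0264). Its groups overlapped, since replicate 1 of dark Ler was above replicates 2 and 3 of dark atbzip16. OLEO3 ran the other way in every pair, at 0.853, 0.726 and 0.758 times the Ler signal, or -0.36 ± 0.27 on the log2 scale (95% confidence interval -0.95 to 0.23, limma adjusted p = 0.941, 0.373 with the block). Neither fit called it, and whether its difference departs from that of the other 4 genes was not tested.

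Across tested probe sets 17.8% were higher in atbzip16 in all 3 dark pairs and 21.6% lower, beside 4 and 1 of the 5 members. Replicate 1 bears on the calls. Without replicate 1 in all groups limma called 3 of the 5 higher in dark atbzip16, PAP85 (log2 fold change 1.29, adjusted p = 0.000334), AT3G01570 (1.45, 0.0146) and AT2G25890 (1.23, 0.00366), where 2.49% of tested probe sets were called higher. Without dark Ler replicate 1 alone it called PAP85 (1.42, adjusted p = 0.0208). The share of tested probe sets called higher was not taken for that fit, so this call has no background beside it. Leaving out arrays gave 1 to 649 calls in this contrast.

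**Figure D3:**
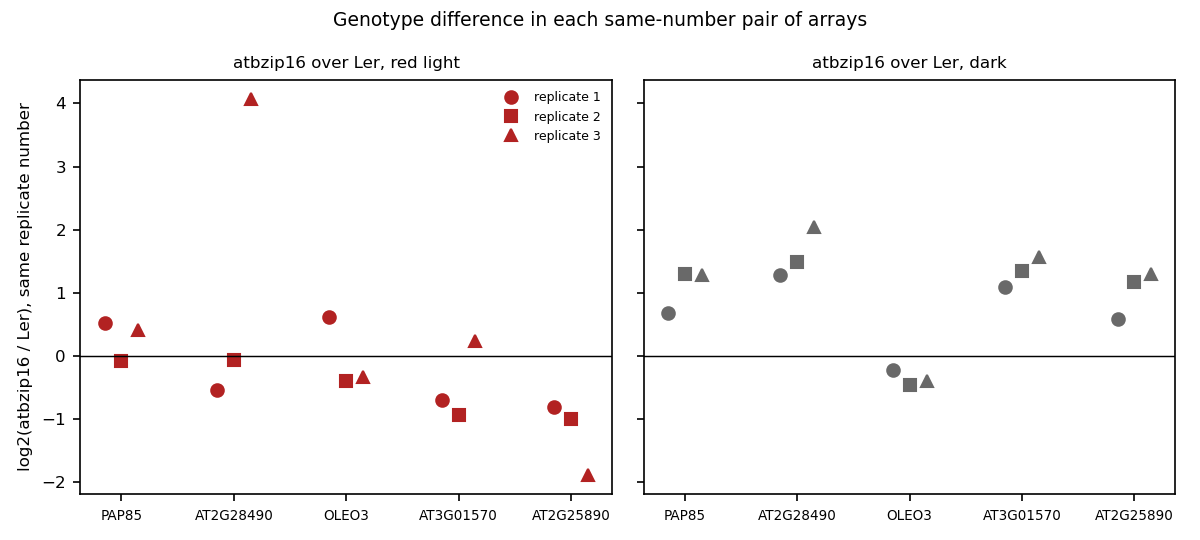
Points give log2 of atbzip16 over Ler for arrays of the same replicate number, in red light on the left and in the dark on the right (circle, square and triangle for replicates 1, 2 and 3). In the dark all pairs of 4 genes lie above 0 and all pairs of OLEO3 below it, whereas in red light AT2G25890 alone has all 3 pairs on one side.

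The third comparison asks the same question in red light, where all 5 genes were low. By limma 0 of the 5 passed and 0 had an unadjusted p under 0.05, against 814 of the 15922 tested probe sets, and 0.0251% of tested probe sets were called lower. PAP85 had a geometric mean of 250.3 in red-light atbzip16 and 205.8 in red-light Ler, and OLEO3 one of 170.5 in atbzip16 and 175.4 in Ler. The intervals of their log2 differences ran from -0.26 to 0.83 for PAP85 and from -0.63 to 0.55 for OLEO3, both narrow beside the light responses of these genes. AT2G28490 (1.15 ± 0.70) and AT3G01570 (-0.47 ± 0.56) had pairs in both directions.

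AT2G25890 was lower in atbzip16 in all 3 red-light pairs, at 0.568, 0.500 and 0.269 times the Ler signal, as were 15.2% of tested probe sets. Its log2 difference was -1.24 ± 0.64 (limma adjusted p = 0.999), and it passed with replicate as a block (adjusted p = 0.0216), where 0.345% of tested probe sets fell. Its genotype difference therefore had opposite signs in the 2 light conditions, in 3 of 3 pairs each, a pattern that 2.29% of tested probe sets showed. Without replicate 1 in all groups limma called the red-light difference too (-1.45, adjusted p = 0.00145), where 1.73% of tested probe sets were called lower.

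The interaction asks whether the light response itself differed between genotypes. The fall was larger in atbzip16 for 4 of the 5 genes, with a difference of the log2 fold changes (atbzip16 minus Ler) of -2.25 ± 0.91 for AT2G25890, -1.80 ± 0.79 for AT3G01570, -0.81 ± 0.36 for PAP85 and -0.45 ± 0.99 for AT2G28490. OLEO3 had 0.32 ± 0.38. By limma 0 of the 5 passed (adjusted p = 0.999 for each), 3 had an unadjusted p under 0.05, and 0 of the 15922 tested probe sets (0%) passed, with 571 at an unadjusted p under 0.05.

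With replicate as a block AT2G25890 passed in the interaction (adjusted p = 0.00433), where 0.333% of tested probe sets were lower, and the other 4 genes did not (adjusted p = 0.428 to 0.915). Without replicate 1 in all groups limma called AT2G25890 (-2.68, adjusted p = 0.00032) and PAP85 (-1.13, adjusted p = 0.0189), where 1.14% of tested probe sets were lower. The difference of AT2G28490 changed its sign in that fit (0.24).

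Replicate 1 stood apart within the groups, and not in the same way for each gene. In both dark groups it was the highest array for PAP85, AT2G28490, AT3G01570 and AT2G25890, and the lowest for OLEO3. Over the mean log2 signal of replicates 2 and 3 it was 1.92 times as high in dark atbzip16 and 2.48 times in dark Ler for AT3G01570, and 2.08 and 3.26 times for AT2G25890. For OLEO3 it was 0.690 times in dark atbzip16 and 0.600 times in dark Ler. Of all tested probe sets, 25.6% were highest and 28.1% lowest in replicate 1 of both dark groups.

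In red light the 3 oleosins parted. AT2G25890 was again highest in replicate 1, at 4.40 times the other replicates in atbzip16 and 2.84 times in Ler. AT3G01570 was lowest there, at 0.324 times in atbzip16 and 0.416 times in Ler. OLEO3 was lower in replicate 1 of Ler (0.535 times) and level in atbzip16 (1.05 times). Replicate 1 was the highest array of both red-light groups in 22.8% of tested probe sets and the lowest of both in 26.8%. The labels do not say what a replicate number stands for beyond a biological replicate.

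**Figure D4:**
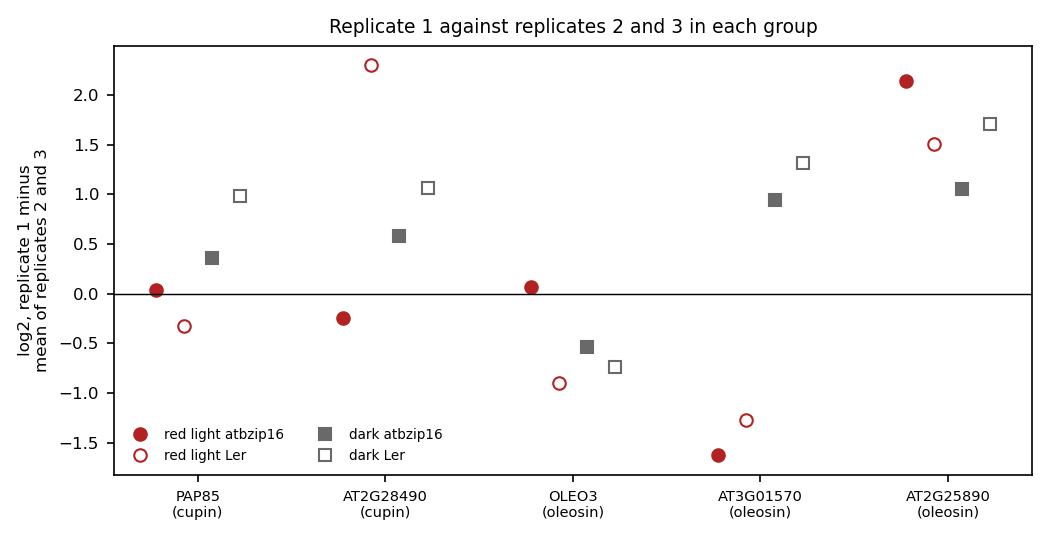
Points give the log2 signal of replicate 1 minus the mean log2 signal of replicates 2 and 3, for each gene and group (red circles for red light, grey squares for dark, filled for atbzip16 and open for Ler). AT2G25890 is above 0 in all 4 groups, OLEO3 is below 0 in both dark groups, and AT3G01570 is above 0 in the dark and below 0 in red light.

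Genes of late embryogenesis abundant proteins, which protect the drying embryo, moved with the cupins and oleosins. Of 25 listed genes 16 had a probe set and 14 were tested. In red light 14 of the 14 fell in atbzip16 and 11 in Ler, where 7.03% and 5.88% of tested probe sets fell. Their median log2 fold changes were -5.07 in atbzip16 and -3.01 in Ler. Some passed the filter on mean signal only through their dark arrays, such as AT2G42560, with red-light means of 14.5 in atbzip16 and 9.14 in Ler. These counts are thus partly set by the filter and are no test of the list. Without a replicate block 0 of the 14 were called between genotypes in the dark, in red light or in the interaction. With replicate as a block 13 fell in Ler, where 12.7% of tested probe sets fell. In dark atbzip16 6 of the 14 then rose over Ler, where 1.27% of tested probe sets did. In red light 3 were lower in atbzip16 than in Ler (0.345% of tested probe sets), and 7 were lower in the interaction (0.333%). The 4 falls with the smallest p in Ler were those of M10 (-8.46 in atbzip16, -4.87 in Ler), M17 (-7.49 in atbzip16, -8.65 in Ler), AT5G44310 (-5.79 in atbzip16, -3.28 in Ler) and AT2G42560 (-4.96 in atbzip16, -4.39 in Ler). Red-light signals of these genes reached down to 7.8 for M10, 3.0 for M17, 22.9 for AT5G44310 and 4.5 for AT2G42560, below the filter limit of 50.3 for mean signal, so the sizes of these falls are loosely determined. Their summed signal over 16 probe sets was 1812.1 to 4693.0 in red-light atbzip16 and 53780.8 to 92839.9 in dark atbzip16. In Ler it was 2888.1 to 7288.7 in red light and 19256.9 to 52248.4 in the dark. The 14 were all higher in atbzip16 in all 3 dark pairs and all highest in replicate 1 of both dark groups, which is the direction of 4 of the 5 members and not of OLEO3. In red light 9 of the 14 were lower in atbzip16 in all 3 pairs, as AT2G25890 was. What part seeds at an earlier stage had in these values was not tested.

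Other storage-protein and cupin genes gave a mixed picture. Of 13 listed genes 4 were tested, and 2 fell in both genotypes. Of all tested probe sets 7.03% fell in atbzip16 and 5.88% in Ler. AT1G03890, a cruciferin-like globulin, had a log2 fold change of -4.79 ± 0.87 in atbzip16 and -4.70 ± 0.87 in Ler, and AT4G36700, a further cupin, one of -4.31 ± 0.66 in atbzip16 and -4.19 ± 0.66 in Ler. Their red-light signals were as low as 2.1 for AT1G03890 and 7.0 for AT4G36700, with the same limit on size. Red-light means in atbzip16 and Ler were 44.2 and 8.88 for AT1G03890, and 55.1 and 23.6 for AT4G36700. These lay near or below the filter limit of 50.3, so the count of falls is partly set by the filter. AT1G07750, a cupin-fold gene, was at 692.8 in red-light atbzip16 and 665.2 in dark atbzip16, and did not pass. The fall was thus not shared by every tested gene with a cupin domain.

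The same held for proteins of the oil body. Of 12 other listed oleosin-family genes 2 were tested, and AT3G18570 fell (-3.71 ± 0.75 in atbzip16, -2.67 ± 0.75 in Ler) while AT5G56100 did not pass (0.35 in atbzip16, 0.47 in Ler). The red-light means of AT3G18570, 33.4 in atbzip16 and 23.2 in Ler, lay below the filter limit of 50.3, which it passed through its dark arrays. Of 18 other oil-body genes 5 were tested, with 2 falls in atbzip16 and 1 in Ler. Beside the counts of both lists, 7.03% of tested probe sets fell in atbzip16 and 5.88% in Ler. AT2G47780, of the rubber elongation factor family whose members sit on lipid droplets, fell by 3.06 ± 0.41 on the log2 scale in atbzip16 and by 3.54 ± 0.41 in Ler. With the block AT4G10790 was called higher in Ler (0.46, limma adjusted p = 0.0419, against 0.0841 without the block). AT3G05500, of the family of AT2G47780, did not pass (0.20 in atbzip16, 0.13 in Ler).

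Of 12 listed genes that process or degrade storage proteins 5 were tested, and 1 fell in each genotype (7.03% of tested probe sets in atbzip16, 5.88% in Ler). With the block DELTA-VPE, a further vacuolar processing enzyme, also fell in atbzip16 (-1.01, limma adjusted p = 0.0355, against 0.142 without the block). The gene called in both genotypes was BETA-VPE, the seed-type vacuolar processing enzyme that cleaves storage proteins into their mature chains, with a log2 fold change of -3.06 ± 0.34 in atbzip16 and -1.30 ± 0.34 in Ler (limma adjusted p = 8.32e-05 and 0.027). Among 16 listed regulators of seed maturation 3 were tested and 2 fell in both genotypes. Of all tested probe sets 7.03% fell in atbzip16 and 5.88% in Ler. EEL, a bZIP factor of the maturation programme, had -2.93 ± 0.33 in atbzip16 and -2.33 ± 0.33 in Ler, and AGL67, a MADS-box factor, -8.22 ± 0.99 in atbzip16 and -6.69 ± 0.99 in Ler. All 6 red-light signals of AGL67, at 1.8 to 45.8, lay below the filter limit, so the size of its fall is not well determined. AGL67 passed the filter only through its dark arrays, so the count of regulators that fell is partly set by the filter. BZIP53, a further bZIP factor of maturation genes, did not pass (0.42 in atbzip16, 0.47 in Ler) and was called higher with the block (limma adjusted p = 0.0057 in atbzip16 and 0.00291 in Ler).

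Of 17 listed genes of oil synthesis and breakdown 3 were tested and 0 passed by limma in either genotype, with 1 rise and 1 fall in each with replicate as a block. ICL, the isocitrate lyase that turns oil carbon towards sugar, had a mean signal of 14201 in red-light atbzip16 and 22474 in dark atbzip16. SDP1, the main lipase of stored oil, had 2333 in red-light atbzip16 and 1758 in dark atbzip16. In Ler the log2 fold changes were -0.42 ± 0.28 for ICL and 0.50 ± 0.16 for SDP1, small beside those of the oleosins. With the block ICL was called higher in dark atbzip16 than in dark Ler (0.73, limma adjusted p = 0.00649, against 0.677 without the block). The 11 listed repressors of the seed programme had no probe set in the annotation used here. The 2 of 9 endosperm and seed coat genes with a probe set, BAN and AT3G50990, were below the filter, with signals of at most 77.1.

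**Figure D5:**
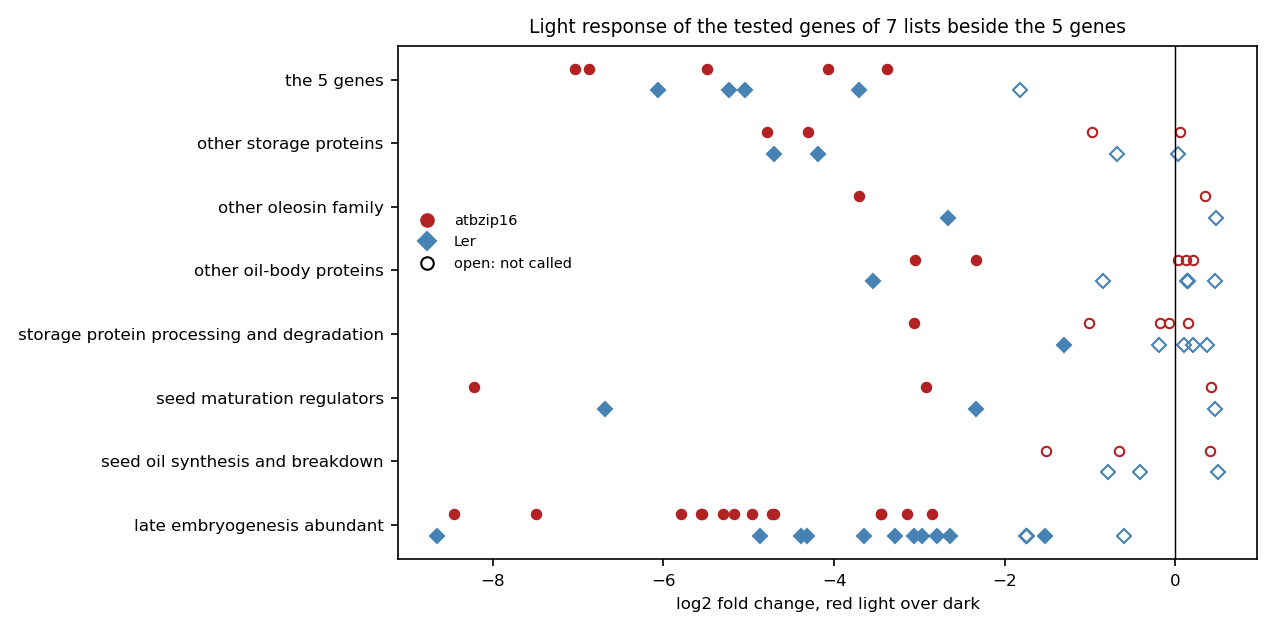
Each symbol is the log2 fold change of red light over dark of 1 tested gene, with red circles for atbzip16 and blue diamonds for Ler, and open symbols where limma's adjusted p was 0.05 or more. The 5 genes are in the top row and 7 lists below it, and falls of the size of the 5 genes recur among late embryogenesis abundant genes and in single genes of the storage-protein, oil-body and regulator lists.

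Likeness of pattern was measured as the root mean square difference between log2 profiles over the 12 arrays, each centred on its own mean. A value of 0 would be the same pattern with changes of the same size. These profiles were not scaled, so the size of the light response counts as well as the shape. The 2 cupins lay 1.09 apart. The closest members were PAP85 and AT3G01570, a cupin and an oleosin, at 0.60, and the farthest AT3G01570 and AT2G25890, both oleosins, at 1.99. The families did not form separate groups by this measure.

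The named genes closest to the mean profile of the 2 cupins were AT3G05260 (0.39) and AT1G54870 (0.46), both of the short-chain dehydrogenase type, followed by the dehydrin gene LEA (0.54), AT3G22490 (0.64) and AT2G15010 (0.72). AT3G22490 had red-light means of 4.45 in atbzip16 and 3.04 in Ler, far below the filter limit of 50.3, so its distance is loosely determined. Closest to the mean of the 3 oleosins were AT1G04560 (0.34), AT2G21820 (0.38), AT1G27990 (0.44), AT5G66780 (0.51) and AT5G44310 (0.52). With profiles scaled to the same SD, 2 of the 5 genes of the cupin list and 3 of the 5 of the oleosin list remained.

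The 3 oleosins lay 1.26 to 1.99 apart on the unscaled measure, so the neighbours of each gene were also taken, after its values had been seen. AT2G25890 was closest to 2 late embryogenesis abundant genes, LEA18 (0.41) and AtLEA4-1 (0.48). OLEO3 was closest to AT3G48460 (0.51), AT2G47780 (0.54), AT4G36010 (0.63), the expansin EXPA9 (0.64) and AT2G34020 (0.64). Its nearest gene of the late embryogenesis list, AT3G15670, lay at 0.98, with 88 tested probe sets closer. PAP85 (1.12, with 39 closer) and AT3G01570 (1.04, with 18 closer) lay farther from their nearest gene of that list. AT2G28490 (0.91, with 17 closer) lay slightly nearer to its own. EXPA9, which loosens cell walls during growth, had a mean signal of 277.1 in red-light atbzip16, 238.4 in red-light Ler, 1322 in dark atbzip16 and 1764 in dark Ler, and AT2G47780 one of 359.0 in red-light atbzip16, 204.9 in red-light Ler, 2988 in dark atbzip16 and 2385 in dark Ler.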

How the data were processed

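The authors deposited 1 linear intensity per probe set and array. The submitters' processing notes name MAS5, and its version, settings and detection calls are not given in the sources used here. Checked on the values, each array had a mean without the lowest and highest 2% of 500 to 500.1. The extraction protocol also mentions polysome RNA, while samples are labelled total RNA. Groups come from the titles.

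The deposited signals were put on a log2 scale with no pseudocount added. Of 22810 probe sets, 64 controls and the 30% of the others with the lowest mean signal (under 50.3) were left out, and 15922 were fitted with limma 3.58.1 in R 4.3.3 (a mean per group over 12 arrays, eBayes with a variance trend). P values were adjusted by Benjamini-Hochberg within each of 5 contrasts, and called means an adjusted p under 0.05. The fit without a block was tried on simulated data with independent noise and no replicate effect, where only the light contrast in Ler was checked. The genotype contrasts, the interaction and the block were not tried in this way. Errors given as ± are standard errors from limma. Arrays carry no counts, so their number, 3 per group, limits the precision.

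Probe sets were named from the platform annotation (13513 with 1 gene), updated through a TAIR10.1 gene table. Members and gene lists were chosen with earlier results of these data known. Named list genes were up to 4 called ones with the smallest p in Ler, or the 2 with the smallest p, and the 5 nearest profiles per family. Others were named after their values were seen (among them AT1G07750, AT5G56100, AT3G05500, AT4G10790, DELTA-VPE and BZIP53). Residuals of same-number arrays of different groups correlated in all 18 pairs, at 0.302 to 0.501 for replicate 1 and 0.158 to 0.296 for replicates 2 and 3. Pairs of different number had -0.379 to 0.229, which overlaps the range of replicates 2 and 3. Block results are printed, by gene or as counts of a list, where they change a call.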

Additional observations from a re-analysis of the deposited data

Results flagged for a closer look

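AT2G25890 had a light response that differed between the genotypes by -2.25 on the log2 scale (atbzip16 minus Ler). It was picked out because its atbzip16 signal was above Ler in 3 of 3 dark pairs and below Ler in 3 of 3 red-light pairs. The test of the difference gave a limma adjusted p of 0.999, and 0.00433 with replicate as a block. Both come from the arrays on which the gene was picked out, so neither is an independent test. No explanation was weighed.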

How the results depend on the processing

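The falls of PAP85, AT2G28490, OLEO3 and AT3G01570 in red light kept their direction and their call in both genotypes under all 24 alternatives, with log2 fold changes of -7.09 to -5.63, -6.04 to -3.80, -3.95 to -2.98 and -7.85 to -4.38 over both. AT2G25890 lay between -4.79 and -3.49 in atbzip16 and between -2.33 and -1.26 in Ler.

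The number of probe sets called moved more. The main counts were 2259 probe sets for light in atbzip16, 1849 for light in Ler, 16 and 6 between genotypes in the dark and in red light, and 0 in the interaction. The replicate block treats arrays of the same number as paired, which the labels do not state. Residuals of same-number arrays correlated at 0.302 to 0.501 for replicate 1. For replicates 2 and 3 the range was 0.158 to 0.296, and pairs of different number reached 0.229. The pairing of replicates 2 and 3 is thus not established. In the block fit the light counts rose to 4263 for atbzip16 and 3790 for Ler. The genotype counts were 296 in the dark and 90 in red light, and the interaction had 57. Of the 5 genes, 2 were then higher in the dark, 1 lower in red light and 1 lower in the interaction. The block changed no other call of the 5 beside AT2G25890 in Ler. Fitting only the groups of a contrast gave 1115 for light in Ler and 1 for genotype in red light. For genotype in the dark a pseudocount of 16 gave 30, one of 64 gave 91, median centring 10 and no variance trend 9. In red light a pseudocount of 64 gave 12, and in the interaction pseudocounts of 16 and 64 gave 1 and 10. Leaving out arrays gave 403 to 4699 for light in atbzip16, 311 to 4292 for light in Ler, 1 to 649 for genotype in the dark, 1 to 458 in red light and 0 to 242 in the interaction, and called 0 to 3, 0 to 1 and 0 to 2 of the 5 genes in the last 3. The signs that turned did so when arrays were left out: in red light AT2G28490 ran from -0.31 to 2.00, OLEO3 from -0.36 to 0.18 and AT3G01570 from -1.09 to 0.075, and the interaction of AT2G28490 from -1.68 to 0.32. The cause was not tested. Median centring moved the share of light calls that were higher to 65.4% in atbzip16, against 50.5%, and to 67.4% in Ler, against 49.4%, and of the genotype calls in the dark to 50%, against 62.5%.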

Other observations

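With replicate number as a block, further genes of the lists separated the genotypes. BETA-VPE, the processing enzyme of storage proteins, followed the genotype pattern of 4 of the 5 members in the dark. Its signal was 5500.1, 3953.5 and 3624.9 in dark atbzip16 (replicates 1, 2 and 3), against 2697.1, 1567.0 and 1210.6 in dark Ler, with no overlap. The log2 fold change was 1.32 ± 0.34 (limma adjusted p = 0.287, with the block 0.000611). In red light it was 871.6, 399.2 and 390.7 in atbzip16, against 916.6, 566.8 and 659.1 in Ler, so that the interaction was -1.76 ± 0.48 (limma adjusted p = 0.983, and 0.00111 with the block). GAMMA-VPE, the vegetative enzyme of the same family, was at 5722.2, 5070.7 and 5074.7 in dark atbzip16, against 8138.0, 5916.6 and 5397.9 in dark Ler, the opposite direction in each pair and not called. DELTA-VPE was higher in atbzip16 in each dark pair and lower in each red-light pair, as BETA-VPE was. The interaction of DELTA-VPE was -1.39 ± 0.60 (limma adjusted p = 0.999, and 0.374 with the block). ALPHA-VPE had dark pairs in both directions.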
